A study of Mus musculus with 6 samples.

Results

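The 49 genes described here encode proteins that carry a cell through mitosis, from the cyclins and kinases of mitotic entry to the kinetochore, the spindle and the machinery of cytokinesis. They were chosen by symbol for their roles in mitosis, by a list drawn up with earlier results of these data known, and all 49 were found among the 54232 genes counted. RNA-seq was performed on primary oviductal muscle cells isolated on day 2 of pregnancy from WT and Pbrm1 cKO mice aged 8 to 12 weeks, with 3 libraries per group. Pbrm1 encodes polybromo, which targets a SWI/SNF complex to chromatin. In the cKO, floxed Pbrm1 was deleted by a cre inserted at the progesterone receptor gene. Deletion thus follows the cells that have expressed that receptor and is not limited to muscle. The labels call the controls WT, as does the main text of the study for oviductal smooth muscle cells. Its supplement names the controls of such cells as floxed (Pbrm1fl/fl), and floxed littermates were the controls in its mating experiments. All oviducts came from mated females and were digested and filtered, and the cells spent some hours in serum-containing medium before RNA was taken. Neither the labels nor the methods say whether a library was 1 animal or a pool, and p-values measure the spread between these libraries.

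Mitosis is driven by cyclin B bound to CDK1, and ends when the anaphase-promoting complex, activated by CDC20, marks cyclin B and securin for degradation and so frees separase to cut the cohesin between sister chromatids. Kinetochores, built on centromeres that contain the histone CENP-A, hold chromosomes to spindle microtubules, and the spindle assembly checkpoint withholds CDC20 until every chromosome is attached. Transcripts of most of these genes accumulate in G2 and M phase, under MuvB complexes that contain B-MYB or, in resting cells, a pocket protein (the DREAM complex). Their promoters are known for the cell cycle genes homology region (CHR), bound by the MuvB subunit LIN54, and for CCAAT boxes, bound by NF-Y.

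Both promoter elements were common in this set, and the stretches below were picked because they hold them. They come from abundant members, from members with large decreases, and from Ccnb2, which did not follow the other genes. Cenpe and Mki67 also had large decreases but no CHR element within 50 bases of the start, and are not shown. Sequences and starts are those of RefSeq (GRCm38.p6), read 5′ to 3′ on the strand of the gene, with position 1 at the start and -1 just before it. Capitals mark the CHR hexamer TTTGAA and the CCAAT box, which also appear as their complements TTCAAA and ATTGG. The first 5 lines lie upstream of the start, outside annotated exons, and the last 4 just downstream of it.
Top2a, chr11:99024190-99024289, minus strand, positions -100 to -1: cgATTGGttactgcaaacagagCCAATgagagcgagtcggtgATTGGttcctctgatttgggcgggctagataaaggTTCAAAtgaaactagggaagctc
Kif11, chr19:37376282-37376381, plus strand, positions -100 to -1: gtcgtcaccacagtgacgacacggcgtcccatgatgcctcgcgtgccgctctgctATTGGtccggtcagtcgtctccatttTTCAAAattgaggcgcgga
Cdc20, chr4:118437353-118437443, minus strand, positions -100 to -10: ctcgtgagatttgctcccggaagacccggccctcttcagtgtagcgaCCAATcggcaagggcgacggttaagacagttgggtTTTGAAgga
Ccnb2, chr9:70421555-70421654, minus strand, positions -100 to -1: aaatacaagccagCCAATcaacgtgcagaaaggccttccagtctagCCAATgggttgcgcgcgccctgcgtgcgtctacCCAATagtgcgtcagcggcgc
Aurka, chr2:172370571-172370670, minus strand, positions -100 to -1: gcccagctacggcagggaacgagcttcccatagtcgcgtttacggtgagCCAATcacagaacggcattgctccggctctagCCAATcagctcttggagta
Ccnb2, chr9:70421525-70421554, minus strand, positions 1 to 30: ggtaTTTGAAtcgcggaccgggcggtggac
Plk1, chr7:122159454-122159483, plus strand, positions 20 to 49: ccagcgccgcgTTTGAAttcggggaggagc
Cenpf, chr1:189688057-189688086, minus strand, positions 1 to 30: agTTTGAAtcgctcgtgctggtcggggagg
Anln, chr9:22389167-22389196, minus strand, positions 11 to 40: gggcgctgaaaTTCAAAtTTTGAAcggccg

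RNA of the mitosis and kinetochore genes was less abundant in Pbrm1 cKO cells than in WT cells. Of the 49 members, 42 were lower and 1 was higher in cKO at an adjusted p-value under 0.05 (edgeR quasi-likelihood test, Benjamini-Hochberg adjustment over 15376 tested genes), and 6 did not pass. Across all tested genes, 21.8% were lower and 21.9% higher by the same rule. The median log2 fold change of the members was -0.52, against 0.002 over all tested genes. All 49 had passed the filter on low counts, with between 94 and 6223 counts in a library. The CPM (counts scaled to a common normalized library total) of all 3 cKO libraries lay below those of all 3 WT libraries for 43 members, namely the 42 and Bub3, which compares with 26.9% of tested genes, those of Pttg1 lay above (26.6% of tested genes), and 29 members passed the test with a log2 fold change under -0.5, which compares with 6.97%. Among the 42, the cKO mean was between 49.6% and 83.2% of the WT mean. In bulk RNA, fewer dividing cells and less RNA of these genes in each cell cannot be told apart.

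Summed over the 49 members, RNA took 2913, 2806 and 2935 CPM in the WT libraries and 1965, 1963 and 1997 CPM in the cKO libraries of replicates 1, 2 and 3. The groups did not overlap, and the cKO libraries differed among themselves by less than the WT libraries did. Single members varied more: the coefficient of variation between replicates had a median of 4.3% in WT and 5.2% in cKO, and reached 12.9% and 18.7%. WT replicate 3 held the highest WT value for 25 members and WT replicate 2 the lowest for 28.

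**Figure D1:**
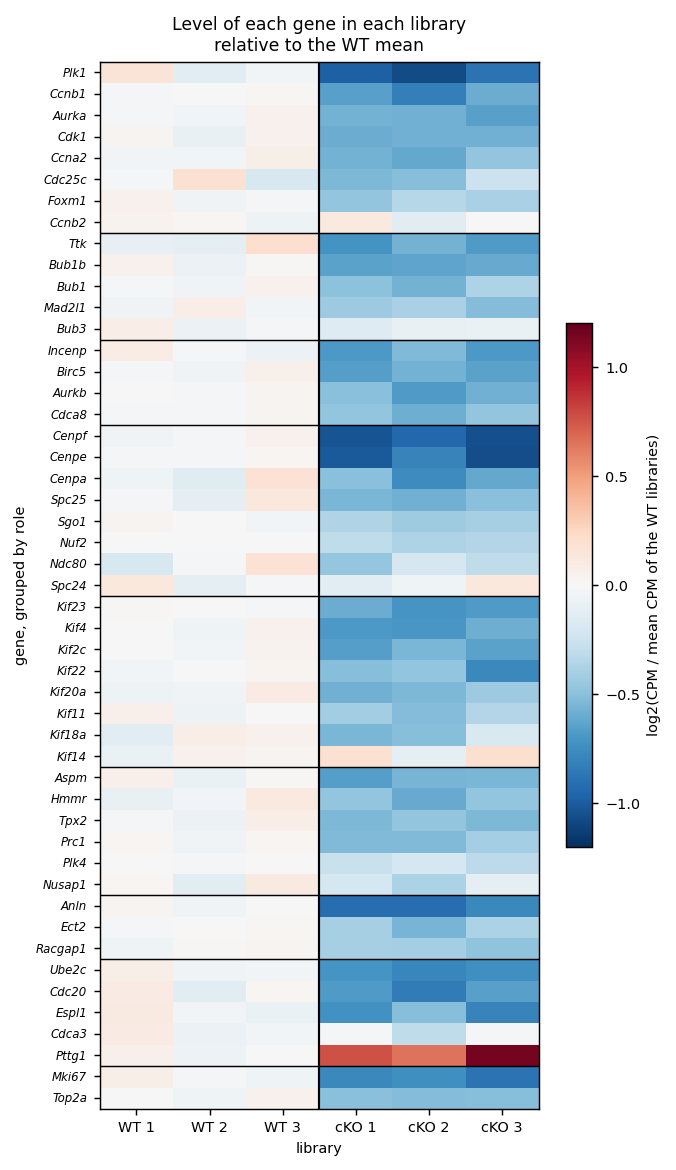
Log2 ratio of the CPM of each of the 49 members (vertical axis, grouped by role) in each of the 6 libraries (horizontal axis) to the mean CPM of the WT libraries. Blue cells are below and red cells above the WT mean; the 3 cKO columns are blue for nearly all genes, pale for Ccnb2, Bub3, Spc24, Kif14 and Cdca3, and red for Pttg1.

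The comparison rests on libraries of similar depth, from 15390818 to 18947947 counts, in which 3 counts equal 0.158 to 0.195 CPM. Mitochondrial transcripts took 7.95% to 8.24% of WT counts and 6.88% to 7.81% of cKO counts. Pbrm1 itself (chromosome 14, 31019138 to 31121592, plus strand) stood at 170.1, 183 and 172 CPM in WT and at 43.5, 50.7 and 42.7 CPM in cKO, so every cKO library was far below every WT library and none had lost the transcript, which is counted over all exons. The smooth muscle markers were present in all libraries, with a summed level of 3498 to 3570 CPM over 10 genes in WT and 4272 to 4769 CPM in cKO, 5 of the 10 higher and 1 lower past the threshold. Other cell types were present too. Leukocyte markers were higher in cKO for all 11 tested of 12, with sums of 754 to 808 CPM in WT and 1158 to 1250 CPM in cKO, while the T cell marker Cd3e was at or near the floor. Fibroblast markers summed to 3530 to 4110 CPM in WT and 4799 to 5213 CPM in cKO (5 higher and 2 lower of 9 tested), epithelial markers to 1148 to 1249 CPM and 1373 to 1530 CPM (7 higher and 1 lower of 11), and genes that respond to tissue dissociation to 605 to 690.3 CPM and 818 to 919 CPM (8 higher and 1 lower of 11). Mesothelial markers summed to 199 to 209 CPM in WT and to about 152 CPM in each cKO library (3 lower of 5). Endothelial markers summed to 345 to 362 CPM in WT and 286 to 295 CPM in cKO (2 higher and 1 lower of 8). The lower endothelial sum rests on Kdr (182 to 99.4 CPM). The geometric mean level per gene, 116% of WT, rests largely on Vwf (4.35 to 14.2 CPM). Of 8 oocyte and embryo markers, 4 were at 0 in every library and the 8 together reached at most 1.24 CPM. For comparison with these counts of markers, 21.8% of all tested genes were lower and 21.9% higher past the threshold. Whether the marker differences reflect cell makeup, and their part in the lower level of mitosis genes, was not tested.

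Mitotic entry is set by cyclins A2, B1 and B2 with their kinase CDK1, by the phosphatase CDC25C that activates it, by the kinases PLK1 and AURKA, and by FOXM1, a transcription factor of G2 and M phase genes. Of these 8 genes, 7 fell, and the median log2 fold change was -0.57. Per unit of transcript length, Ccna2 (chromosome 3, 36564865 to 36572150, minus strand) was the most abundant of them, at a mean of 77.4 TPM (counts divided by gene length and scaled to a common total). Its level was 116, 116.5 and 125 CPM in the WT libraries and 80.6, 78.0 and 86.2 CPM in the cKO libraries. All cKO values lay below all WT values, and the log2 fold change was -0.55 (SE 0.053, by edgeR, adjusted p = 2.31e-06). Plk1 (chromosome 7, 122159439 to 122169873, plus strand) fell most in this group. It stood at 40.5, 33.1 and 35.5 CPM in WT and at 18.5, 17.3 and 19.7 CPM in cKO, a log2 fold change of -0.98 (SE 0.085, adjusted p = 9.65e-07). WT replicate 1 was the highest, yet the lowest WT library was still well above the highest cKO library. Aurka and Cdk1 were at 66.0% and 66.7% of the WT mean, Foxm1 at 75.7% and Cdc25c at 74.3%. Cdc25c had the lowest CPM of the members that fell, falling from 7.69 ± 0.993 to 5.71 ± 0.63 CPM (SD, n = 3, adjusted p = 0.0169), and its call was lost with DESeq2 (adjusted p = 0.0624), without WT replicate 2 (0.0943) and without cKO replicate 1 (0.0691).

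The mitotic cyclins B did not move together. Ccnb1 (chromosome 13, 100778650 to 100786570, minus strand) stood at 35.0, 35.4 and 35.7 CPM in WT and at 22.4, 20.1 and 23.4 CPM in cKO, with no overlap, and fell by 0.69 on the log2 scale (SE 0.071, by edgeR, adjusted p = 4.31e-06). Ccnb2 (chromosome 9, 70407692 to 70421547, minus strand) stood at 13.3, 13.2 and 12.5 CPM in WT and at 14.1, 11.9 and 12.9 CPM in cKO. Its groups overlapped, with the highest and the lowest value both in cKO (log2 fold change -0.01, SE 0.094, adjusted p = 0.971). Per unit of length the pair was alike in WT, with a ratio of Ccnb1 to Ccnb2 TPM of 0.951, 0.973 and 1.04, whereas in cKO the ratio was 0.577, 0.613 and 0.657. The pair was singled out after its values were seen, and the ratio is given as a description. Both promoters carry CCAAT boxes, and Ccnb2 has the CHR hexamer just after its start, shown above, while the window of Ccnb1 has none within 50 bases of its start. Ccnb1 has 5 pseudogenes of at least 95% identity over 300 bases or more, each at a mean of at most 0.768 CPM, among which reads may have been divided or lost.

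The spindle assembly checkpoint is run by the kinases BUB1 and TTK (MPS1), by BUBR1 (Bub1b) and by MAD2 (Mad2l1), and BUB3 brings BUB1 and BUBR1 to the kinetochore. Of the 5 genes, 4 fell. Ttk (chromosome 9, 83834689 to 83872389, plus strand) changed most, from 19.3, 19.03 and 23.7 CPM in WT to 12.6, 13.9 and 12.9 CPM in cKO. The WT libraries spread more widely than the cKO libraries but stayed above them (log2 fold change -0.65, SE 0.099, by edgeR, adjusted p = 1.41e-04). Bub1b was at 64.8%, Bub1 at 72.1% and Mad2l1 at 73.3% of the WT mean. Bub3 (chromosome 7, 131560222 to 131571895, plus strand), the most abundant per length at 57.9 TPM, stood at 141, 128 and 133 CPM in WT and at 121, 126 and 127 CPM in cKO. Its groups were adjacent without overlap, and the difference did not pass the threshold (log2 fold change -0.11, SE 0.049, adjusted p = 0.0911). The ratio of Bub1b to Bub3 TPM was 0.728, 0.741 and 0.755 in WT and 0.529, 0.508 and 0.517 in cKO, again a description of a pair picked after its values were seen.

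The chromosomal passenger complex joins the kinase AURKB to INCENP, survivin (Birc5) and borealin (Cdca8), and corrects wrong attachments at the centromere. Its subunits fell by similar amounts, with log2 fold changes between -0.63 and -0.51. Aurkb (chromosome 11, 69045647 to 69051664, plus strand), the most abundant at 42.7 TPM, was at 47.6, 47.1 and 49.1 CPM in WT and at 33.9, 29.9 and 32.2 CPM in cKO (log2 fold change -0.58, SE 0.062, by edgeR, adjusted p = 6.32e-06). Incenp (chromosome 19, 9872297 to 9899533, minus strand) was at 52.7, 48.8 and 47.0 CPM in WT and at 30.7, 34.3 and 30.7 CPM in cKO (log2 fold change -0.63, SE 0.067, adjusted p = 6.23e-06). In both genes the groups were clearly apart. The summed level of the complex was 169 to 174 CPM in WT and 114 to 115 CPM in cKO.

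At the centromere and kinetochore, 7 of 8 members fell. Cenpf and Cenpe, the large coiled-coil protein and the kinesin of the outer corona of the kinetochore, were, with Plk1, the members that fell most. Cenpf (chromosome 1, 189640606 to 189688086, minus strand) stood at 49.9, 50.8 and 53.5 CPM in WT and at 25.1, 26.7 and 24.8 CPM in cKO, so that every cKO library was near 50% of the WT level (49.6% of the mean; log2 fold change -1.01, SE 0.061, by edgeR, adjusted p = 3.77e-08). Cenpe fell to 51.5% of WT (log2 fold change -0.95). Cenpa, the centromeric histone, was at 65.1% and Sgo1 (shugoshin), which protects centromeric cohesin, at 75.9%.

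The NDC80 complex, the part of the kinetochore that grips microtubules, was uneven. Spc25 fell to 68.7% of WT, and Nuf2 to 79.0% from WT values that hardly varied (26.8 ± 0.105 CPM, SD, n = 3). Ndc80 (chromosome 17, 71496100 to 71526857, minus strand), the most abundant per length at 26.0 TPM, was at 17.7, 20.1 and 22.8 CPM in WT and at 14.6, 17.6 and 16.3 CPM in cKO. The lowest WT and the highest cKO library nearly met, and the log2 fold change of -0.32 (SE 0.10, adjusted p = 0.0226) lost its call without WT replicate 2 (adjusted p = 0.0531), WT replicate 3 (0.122) or cKO replicate 1 (0.108). Spc24 (chromosome 9, 21755442 to 21760303, minus strand) was at 13.4, 11.3 and 12.2 CPM in WT and at 11.2, 11.9 and 13.5 CPM in cKO, with overlap (log2 fold change -0.02, SE 0.10, adjusted p = 0.908). The ratio of TPM of Spc25 to its direct partner Spc24 was 1.24, 1.40 and 1.52 in WT and 1.04, 0.958 and 0.896 in cKO; this pair, too, was picked after its values were seen.

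Kinesins of mitosis push the spindle poles apart (Kif11), align and carry chromosomes (Kif18a, Kif22, Kif4), take microtubules apart (Kif2c) and build the midzone and midbody (Kif20a, Kif23, Kif14). Of the 8, 7 fell, with log2 fold changes from -0.66 to -0.41. Kif20a, the most abundant at 53.9 TPM, was at 73.3, 74.1 and 82.1 CPM in WT and at 51.4, 52.7 and 56.6 CPM in cKO (log2 fold change -0.52, SE 0.060, by edgeR, adjusted p = 1.38e-05). Kif4 (chromosome X, 100625737 to 100727214, plus strand) measured 54.7, 52.9 and 56.9 CPM in WT and at 34.0, 33.9 and 36.4 CPM in cKO (log2 fold change -0.66, SE 0.059, adjusted p = 1.19e-06). Neither gene had overlapping groups. Kif14 (chromosome 1, 136466343 to 136531511, plus strand), which recruits citron kinase to the midbody and was the least abundant member at 3.68 TPM, was at 11.1, 12.1 and 12.0 CPM in WT and at 13.3, 10.8 and 13.5 CPM in cKO. Here cKO replicates 1 and 3 were above every WT library and cKO replicate 2 below them (log2 fold change 0.09, SE 0.10, adjusted p = 0.530).

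Among the spindle and centriole genes, 5 of 6 fell. Tpx2 (chromosome 2, 152847964 to 152895321, plus strand), which activates AURKA on the spindle, was the most abundant at 63.5 TPM, with 110.3, 106 and 117 CPM in WT and 76.4, 80.0 and 76.6 CPM in cKO (log2 fold change -0.52, SE 0.051, by edgeR, adjusted p = 3.22e-06). Aspm (chromosome 1, 139454772 to 139494091, plus strand), which focuses spindle poles, was at 31.5, 28.7 and 30.7 CPM in WT and at 19.1, 20.6 and 20.7 CPM in cKO (log2 fold change -0.59, SE 0.071, adjusted p = 1.89e-05). Each cKO library was below each WT library for both. Prc1, the bundler of midzone microtubules, was at 71.4% and Hmmr at 69.9% of WT, and Plk4, the kinase of centriole duplication, had the smallest decrease of the members that passed, at 83.2%. Nusap1 (chromosome 2, 119618298 to 119651244, plus strand), a microtubule stabilizer, was at 20.9, 18.8 and 22.1 CPM in WT and at 17.8, 15.8 and 19.04 CPM in cKO, with cKO replicate 3 just above WT replicate 2. Its log2 fold change of -0.23 (SE 0.091, adjusted p = 0.0543) missed the threshold, and passed it in 4 of 13 other fits.

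Cytokinesis needs anillin (Anln), which scaffolds the contractile ring, the RhoA exchange factor ECT2 and its partner RACGAP1. All 3 fell. Anln (chromosome 9, 22332012 to 22389188, minus strand) was at 174, 165 and 170.0 CPM in WT and at 90.2, 90.1 and 98.9 CPM in cKO, a wide gap (log2 fold change -0.87, SE 0.050, by edgeR, adjusted p = 2.43e-08). Ect2 (chromosome 3, 27097222 to 27153878, minus strand) was at 43.4, 44.0 and 44.3 CPM in WT and at 33.3, 29.9 and 33.8 CPM in cKO (log2 fold change -0.44, SE 0.063, adjusted p = 7.80e-05). Racgap1 was at 74.2% of WT. Per unit of length Anln was the most abundant of them, at 45.6 TPM.

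The genes of anaphase held the only increase. Cdc20 (chromosome 4, 118432901 to 118437352, minus strand), the activator of the anaphase-promoting complex, was at 55.2, 47.2 and 52.7 CPM in WT and at 32.2, 29.0 and 33.0 CPM in cKO, without overlap (log2 fold change -0.72, SE 0.073, by edgeR, adjusted p = 3.92e-06), and Ube2c, the ubiquitin-conjugating enzyme of that complex, fell to 59.8% of WT. Espl1, which encodes separase, fell from 33.1 ± 2.29 to 20.7 ± 2.22 CPM (SD, n = 3; log2 fold change -0.67). Pttg1 (chromosome 11, 43420250 to 43426251, minus strand), which encodes securin, the inhibitor and chaperone of separase, went the other way. It was at 8.63, 7.91 and 8.25 CPM in WT and at 14.0, 12.9 and 18.3 CPM in cKO. The WT libraries were close together, the cKO libraries were scattered, and the lowest of these was above every WT library. The log2 fold change was 0.86 (SE 0.13, adjusted p = 1.08e-04), and stayed between 0.71 and 0.96 over 13 other fits. In TPM the ratio of Pttg1 to Espl1 was 1.06, 1.07 and 1.16 in WT and 3.07, 2.44 and 4.23 in cKO, a description of a pair picked after its values were seen. Cdca3 (chromosome 6, 124829547 to 124833701, plus strand), which takes part in the degradation of WEE1 before mitosis, was at 20.6, 18.3 and 18.8 CPM in WT and at 18.9, 15.5 and 18.98 CPM in cKO, with overlap (log2 fold change -0.11, SE 0.093, adjusted p = 0.355).

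**Figure D2:**
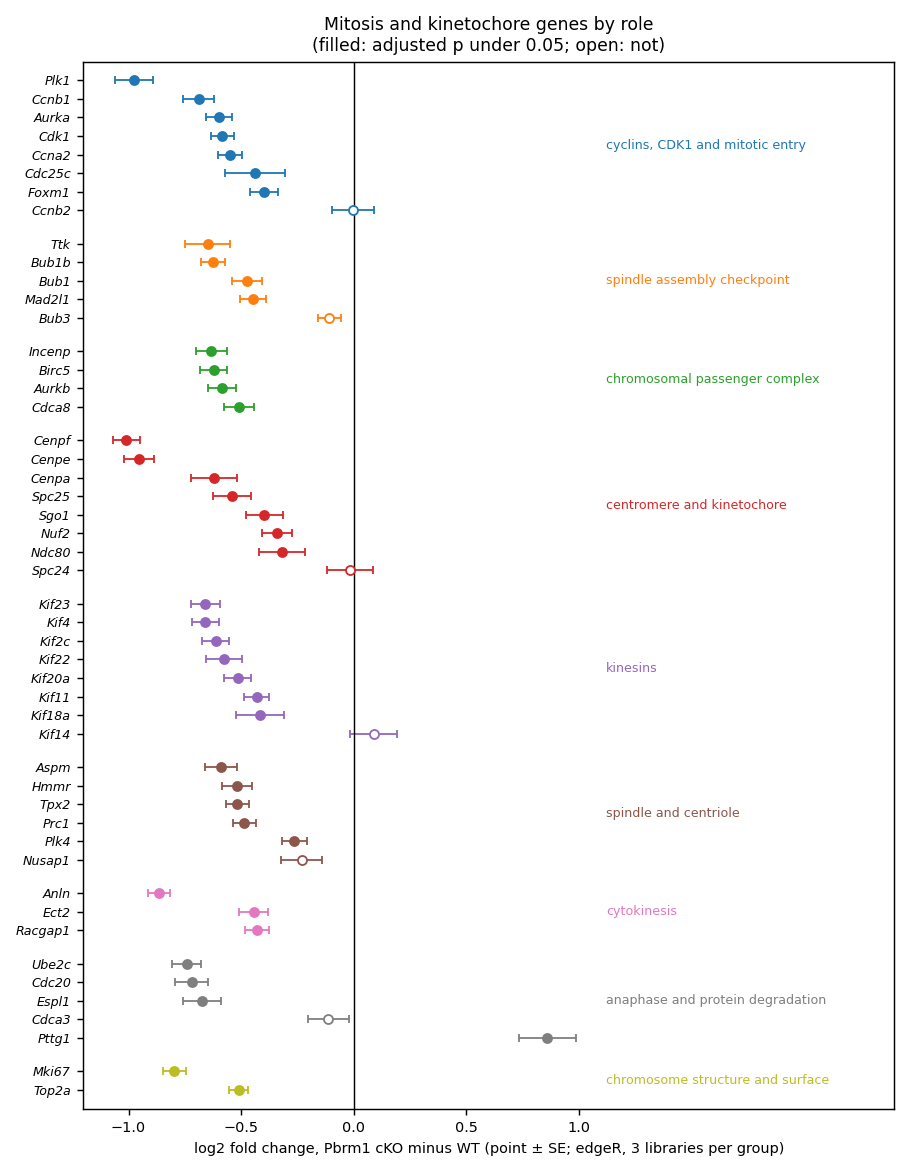
Log2 fold change of cKO against WT (horizontal axis) of each of the 49 members, with bars of 1 SE from edgeR, grouped by role (colour). Filled points passed an adjusted p of 0.05 and open points did not; Cenpf at -1.01 is farthest left and Pttg1 at 0.86 is the only filled point right of 0.

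A pair of structural genes completes the set, the DNA untangling enzyme topoisomerase II alpha (Top2a) and Ki-67 (Mki67), which coats mitotic chromosomes and is the usual histological marker of cycling cells. Top2a (chromosome 11, 98992943 to 99024189, minus strand) was the most abundant member, at 102 TPM, with 345, 333 and 356 CPM in WT and 243, 240.4 and 242 CPM in cKO (log2 fold change -0.51, SE 0.043, by edgeR, adjusted p = 7.30e-07). The cKO libraries were nearly equal and far below the WT libraries. Mki67 (chromosome 7, 135689784 to 135716361, minus strand) was at 268, 252 and 248 CPM in WT and at 149, 154 and 138 CPM in cKO (log2 fold change -0.80, SE 0.051, adjusted p = 6.94e-08), again with a wide gap.

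**Figure D3:**
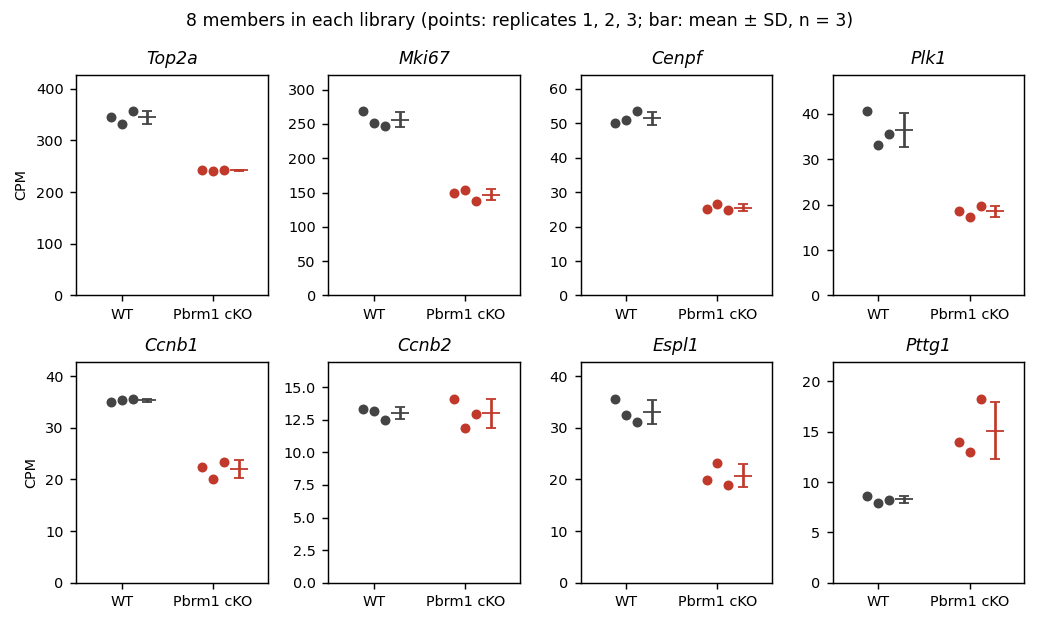
CPM (vertical axes, from 0) of 8 members in each library, with WT in grey and cKO in red; points are libraries in the order of replicates 1, 2 and 3, and bars are mean ± SD (n = 3). The groups are apart and lower in cKO for Top2a, Mki67, Cenpf, Plk1, Ccnb1 and Espl1, overlap for Ccnb2, and are apart and higher in cKO for Pttg1.

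Many other genes of mitosis were lower too. Of 114 further genes of mitosis, 72 (63.2%) were lower and 3 higher in cKO at the same threshold. The median log2 fold change of the 114 was -0.26, and 17 of the 72 were below -0.5. Across all tested genes, 21.8% were lower, 21.9% were higher, and 6.97% were lower with a log2 fold change under -0.5. The difference in size between the 114 genes and the 49 members was not tested. By role, 19 of 23 genes of kinesins and spindle and 10 of 12 of mitotic entry were lower, as were 20 of 34 of the centromere and kinetochore 12 of 17 of condensin and cohesin and 6 of 11 of centriole and cytokinesis. Of 14 subunits of the anaphase-promoting complex, 2 (Anapc1 and Cdc27, 14.3%) were lower and 1 higher, with a median of 0.03. The share of subunits that were lower was under the 21.8% of all tested genes. The complex's inhibitor Fbxo5 (EMI1, -0.32), its coactivator Fzr1 (CDH1, -0.21) and its ubiquitin-conjugating enzyme Ube2s (-0.34) were all lower. The largest decreases among genes at 5 CPM or more were those of Arhgap11a, a RhoA regulator (30.3 ± 3.55 to 15.4 ± 2.98 CPM, SD, n = 3; log2 fold change -0.97), Cit, the citron kinase of the midbody (-0.84), and Psrc1, a spindle protein (-0.78).

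Among these further genes the largest increase was that of Hjurp, the chaperone that places CENP-A on centromeres. Hjurp was at 115, 109 and 114 CPM in WT and at 205, 207 and 210.3 CPM in cKO, with no overlap and little scatter (log2 fold change 0.88, SE 0.044, by edgeR, adjusted p = 5.54e-09), whereas Cenpa fell. The remaining increases, of Rhoa (0.14, adjusted p = 0.0223) and the complex subunit Anapc5 (0.12, adjusted p = 0.0368), were small, and their calls were lost in 5 and 6 of 13 other fits, DESeq2 among them (adjusted p = 0.0541 and 0.0722).

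Genes of DNA replication and S phase were lower by smaller amounts. Of 26, 19 (73.1%) passed the test, each lower in cKO, with a median log2 fold change of -0.22 and none below -0.5. By the same rule, 21.8% of all tested genes were lower, and 6.97% were lower with a log2 fold change under -0.5. Prim1, the DNA primase, had the largest decrease, from 50.8 ± 3.06 to 37.8 ± 2.35 CPM (SD, n = 3), a log2 fold change of -0.43 (SE 0.066, by edgeR, adjusted p = 1.57e-04), followed by Rrm2, the small subunit of ribonucleotide reductase (-0.40), the replication factor Mcm10 (-0.38) and the helicase subunit Mcm2 (-0.35). Pcna, the sliding clamp often used as a proliferation marker, had means of 156 CPM (WT) and 159 CPM (cKO) (adjusted p = 0.594). The difference in size between the S phase list and the members was not tested.

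**Figure D4:**
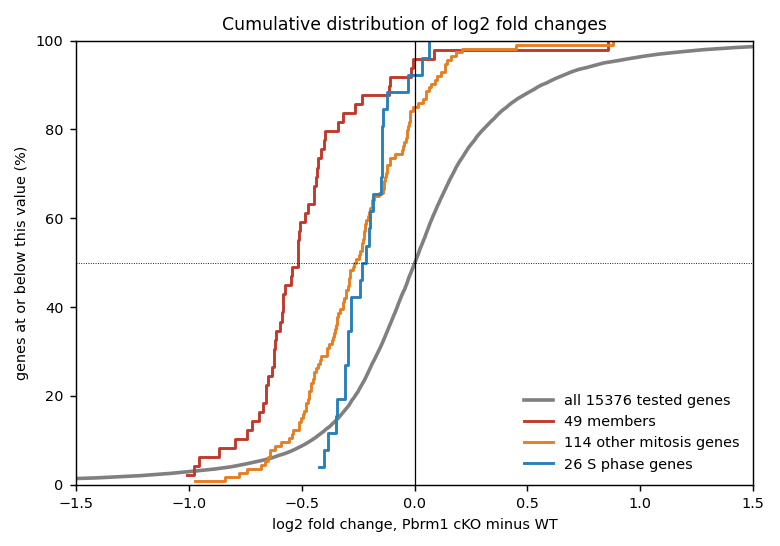
Percentage of genes (vertical axis) at or below each log2 fold change of cKO against WT (horizontal axis) for the 49 members, 114 other mitosis genes, 26 S phase genes and all 15376 tested genes. The members' curve lies farthest left with a median of -0.52, the other mitosis and S phase curves lie between at -0.26 and -0.22, and all tested genes centre near 0.

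Of 22 genes for regulators of this program (MuvB, MYB, E2F, RB and NF-Y families), 9 (40.9%) were lower and 2 higher. Across all tested genes, 21.8% were lower and 21.9% higher, and the difference was not tested. Mybl2, which encodes B-MYB, fell from 15.1, 16.3 and 13.2 CPM in WT to 9.22, 8.97 and 9.26 CPM in cKO (log2 fold change -0.70, SE 0.10, by edgeR, adjusted p = 8.49e-05). Rbl2, which encodes p130, the pocket protein of DREAM, rose from 18.6, 17.5 and 18.9 CPM to 29.2, 25.8 and 29.5 CPM (log2 fold change 0.62, SE 0.077, adjusted p = 2.53e-05). Neither had overlapping groups. E2f7, an atypical E2F that represses transcription, was lower (-0.61), as was Nfya, the regulatory subunit of NF-Y (-0.54), and E2f6, another repressor, was higher (0.22). The MuvB subunits Lin9 (-0.14, adjusted p = 0.264) and Lin54 (-0.10, adjusted p = 0.191) did not pass.

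The start windows of the members, from 250 bases before to 50 bases after each RefSeq start, were searched on both strands for the CHR hexamers TTTGAA and TTCGAA and for CCAAT; 41 members had at least 1 window, 44 in all, and Aurkb, Ccna2, Cdc25c, Foxm1, Incenp, Kif20a, Spc24 and Tpx2 had none. A CHR hexamer lay within 50 bases of the start in 31 of the 44 windows (70.5%), against 4.35% of 21263 windows of protein-coding genes. At least 1 CCAAT was in 34 windows (77.3%, against 38.2%), at least 2 were in 23 (52.3%, against 12.8%), and 29 held both a CHR hexamer near the start and a CCAAT (65.9%, against 1.96%). In Top2a, Kif11 and Cdc20, printed above, the CHR hexamer began 23, 19 and 18 bases before the start.

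Most members fell whether or not a CHR hexamer was found near the start. Of 29 members with it, 26 fell (median log2 fold change -0.58), and the other 3 were Bub3, Ccnb2 and Cdca3. Of 12 members with a window but no such hexamer near the start, 9 fell (median -0.43), among them Cenpe, Ccnb1 and Mki67, and Pttg1 rose. In the whole window, 32 of the 41 members held a CHR hexamer, against 20.2% of protein-coding genes. Mki67 was among the 32, with hexamers at positions -116 and -98. Of the 8 without a window, 7 fell. A match of letters is a description and not a bound site. Some starts are uncertain: 5 of the 44 lie more than 50 bases from the nearest GENCODE start, those of Kif4 (328 bases), Mad2l1 (169), Kif14 (87) and Plk4 (68) and 1 of the 2 of Bub3 (55). The window of Pttg1 overlaps exons of other annotated transcripts, and those of Cdca8, Kif2c and Cdca3 lie wholly inside the spans of their genes. Of the 39 windows within 50 bases of a GENCODE start, 30 (76.9%) held a CHR hexamer within 50 bases of the start, against 4.2% of 17433 such windows of protein-coding genes.

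**Figure D5:**
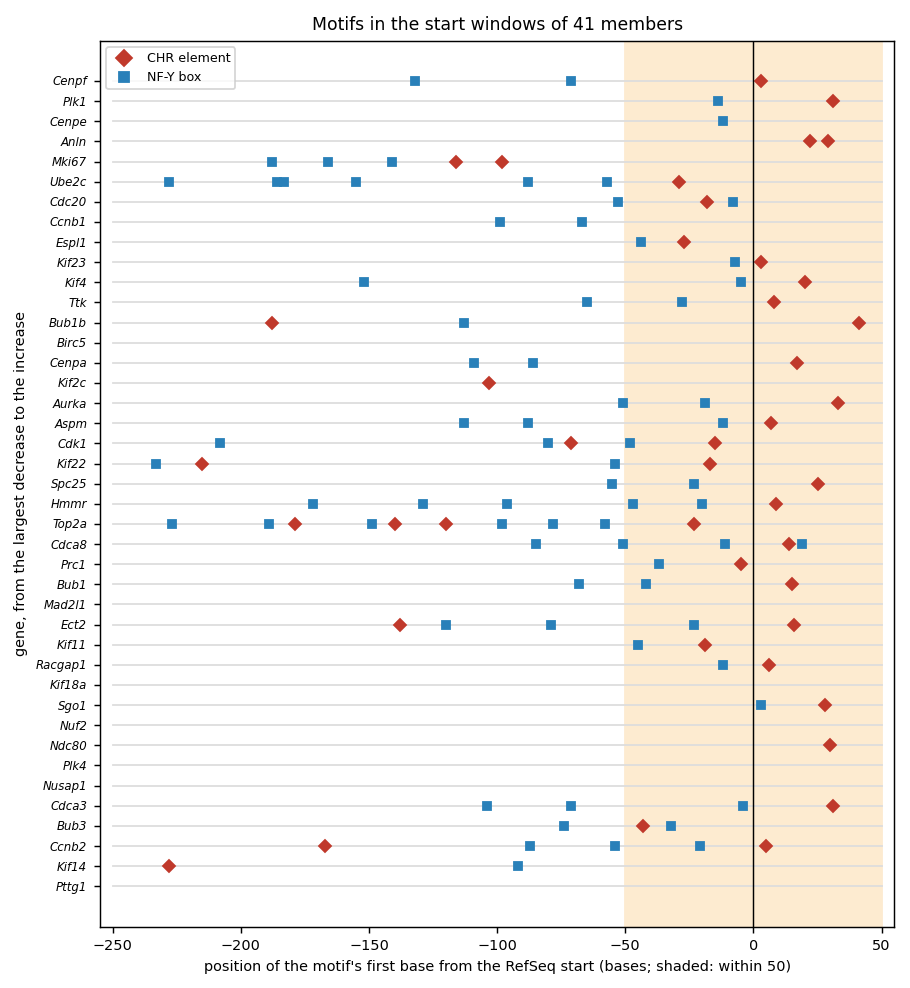
Position of CHR hexamers (red diamonds) and CCAAT boxes (blue squares) in the start window of each of 41 members, in bases from the RefSeq start (horizontal axis), with genes ordered from the largest decrease (top) to the increase (bottom). Red diamonds gather in the shaded 50 bases on either side of the start in genes that fell and also in Cdca3, Bub3 and Ccnb2 near the bottom. Where a gene had several windows (Bub3, Ect2 and Prc1), only that of lowest coordinate is drawn. The undrawn window of Bub3 has no CHR hexamer within 50 bases of its start.

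Besides Ccnb1, copies of at least 95% identity over 300 bases or more exist for Cdc20, Mad2l1, Ndc80 and Racgap1, where reads may have been divided; those in the table were at means of at most 1.78 CPM. On the same strand, exons of Foxm1 are shared with Gm44596 and Tex52 over 2.5% of their length, and those of Top2a with Gm23451 over 1.35%.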

How the data were processed

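Whole-number read counts per gene were deposited for 6 libraries, 3 WT and 3 Pbrm1 cKO. Per the file headers, the authors counted reads with featureCounts 1.6.4 over exons, in reverse-stranded mode, with GENCODE M18 on GRCm38.p5; the submitters' processing notes also name cutadapt and HISAT2. Reads that map to several places were not counted. Symbols came from GENCODE M21 (54079 of 54232 genes).

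Counts were tested with edgeR 4.0.16 in R 4.3.3 (two-sided quasi-likelihood test, TMM normalization, filterByExpr by group, Benjamini-Hochberg adjustment over 15376 genes, threshold 0.05). SE is the log2 fold change divided by the square root of F. CPM used the same normalization, and TPM used the gene lengths in the table. A count of 3 was taken as the floor, and covers counting error only. The script was tested on simulated counts. For pairs of libraries in a group, the mean chi-square per gene over genes with low counts was 1.315 to 1.601. This is more than sampling noise alone would give, and no p-value was computed. Copies were sought with BLAST 2.17.0.

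The members and all lists were chosen with earlier results of these data known. Values in every library are given, by a rule, for the most abundant and the most changed member of each role and for members that did not fall; of other lists, the 4 genes with the largest change and up to 4 higher genes past the threshold, at 5 CPM or more, are named, with others picked after their values were seen. Alternatives were DESeq2, limma-voom, other scalings, filters and thresholds, a replicate block, and fits without 1 library at a time.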

Additional observations from a re-analysis of the deposited data

How the results depend on the processing

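The count of members called, 43 of 49, ranged from 41 to 44 under 14 alternatives (DESeq2 1.42.0, limma-voom 3.58.1, 2 other scalings, 2 other filters, a threshold of 0.01, the replicate number as a block, and each library left out in turn); leaving out 1 library gave 41 to 44. Pbrm1 kept its direction and call throughout. Of 637 values for single members in 13 other fits, 620 kept direction and side of the threshold. Cdc25c and Ndc80 lost their call in the fits named with them, and Nusap1 passed with no filter, with the block and without WT replicate 2 or cKO replicate 3. Ccnb2 changed sign around 0 with library size only (0.011) and without WT replicate 1 (0.012), WT replicate 2 (0.005) or cKO replicate 2 (0.063), and Spc24 without WT replicate 1 (0.046), cKO replicate 1 (0.040) or cKO replicate 2 (0.002), none of them past the threshold (ranges over the fits that left out 1 library: -0.071 to 0.063 for Ccnb2, -0.091 to 0.046 for Spc24); the cause was not tested. The labels do not say whether libraries were paired by replicate number. Correlations of deviations from the group means were -0.024, 0.035 and 0.093 for libraries of the same number. Those of different numbers lay between -0.076 and 0.044, and 3 libraries per group are too few to decide. The replicate block gave 6908 calls against 6723, with 44 members called. DESeq2 called 5329 genes. The lowest count behind a member was 94, for Cdc25c in 1 library.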

Other observations

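The pair of a CHR hexamer near the start and a CCAAT box was also found in 374 genes that are not among the 49, of which 186 were tested. In Pbrm1 cKO 69 of them (37.1%) were lower and 30 (16.1%) higher than in WT, with a median log2 fold change of -0.10. Of 10372 tested genes with a window, members left out, 23.0% were lower and 24.1% higher. These shares are a description, and other genes of mitosis are among the 186.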
